A study of Mus musculus with 10 samples.

Results

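The tenascins Tnc, Tnxb, Tnn and Tnr and the thrombospondins Thbs1, Thbs2, Thbs3, Thbs4 and Comp were followed in the wall of the mouse trachea after chlorine. They were taken by name as families of matricellular genes, and all 9 were measured, each by 1 probe set, among 22180 genes on the array. The exposed group was 5 male FVB/NJ mice, 9 weeks old, that had breathed 235 ppm chlorine with the whole body for 1 hr and were sampled 4 days later. The other group was 5 male FVB/NJ mice of the same age with no treatment. Subepithelial mesenchyme was lifted from stained frozen sections of each trachea by laser-capture microdissection, pooled per mouse and hybridised to 1 Affymetrix array. Values are log2 intensities after robust multi-array averaging (RMA), so a difference of 1 is a 2-fold difference, and the number of arrays limits the precision.

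Fibroblast markers were present in the captured mesenchyme. The mean of 12 such markers was 9.51 to 10.06 in exposed mice and 9.31 to 9.60 in unexposed ones. Array medians were 5.10 to 5.18. The mean of 6 pan-epithelial markers was 8.27 to 9.26 in exposed mice and 8.68 to 9.14 in unexposed ones, so that the captured tissue also held epithelial transcripts. Cartilage markers were likewise present in exposed (6.69 to 8.72) and unexposed mice (8.12 to 9.03). In such bulk tissue, fewer cells of a type and less RNA per cell cannot be told apart. No 2 arrays were identical.

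Tenascins are large extracellular glycoproteins built of EGF-like repeats, fibronectin type III repeats and a fibrinogen-like globe, and thrombospondins are secreted calcium-binding glycoproteins that act as trimers (Thbs1 and Thbs2) or pentamers (Thbs3, Thbs4 and Comp). Both families are called matricellular because they regulate how cells attach to and read the matrix more than they build it, through integrins, CD36, CD47 and syndecans. Tnc and Thbs1 are known as genes of provisional matrix, sparse in most resting adult tissue and made again in wounds, while Comp and Tnxb belong to mature cartilage, tendon and dermis.

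At 4 days after chlorine, Tnc, Thbs1 and Thbs2 were higher in exposed mice, by 5.50-fold, 2.79-fold and 2.02-fold, and no tenascin or thrombospondin passed the test in the other direction. Tnxb, Tnn, Tnr, Thbs3, Thbs4 and Comp did not pass. The groups were compared with limma over all genes, and a gene was called at a Benjamini-Hochberg adjusted p under 0.05 over all 22180 genes. The 3 members called higher were 33.3% of the 9, against 5.85% of all genes called higher and 4.97% called lower. The members were chosen with earlier results of these data known, so this share is a description and not a test. Of the 3 calls, that of Thbs2 was lost in 8 of the 10 fits with 1 mouse left out. The median log2 change over the 9 was 0.61, against -0.0035 over all genes. By size of the log2 rise Tnc ranked 40, Thbs1 203 and Thbs2 418 among all genes, while Comp had the 258th largest fall. The plot of changes with their 95% intervals shows these rises on the right, with Comp and Tnr alone on the left of 0.

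**Figure D1:**
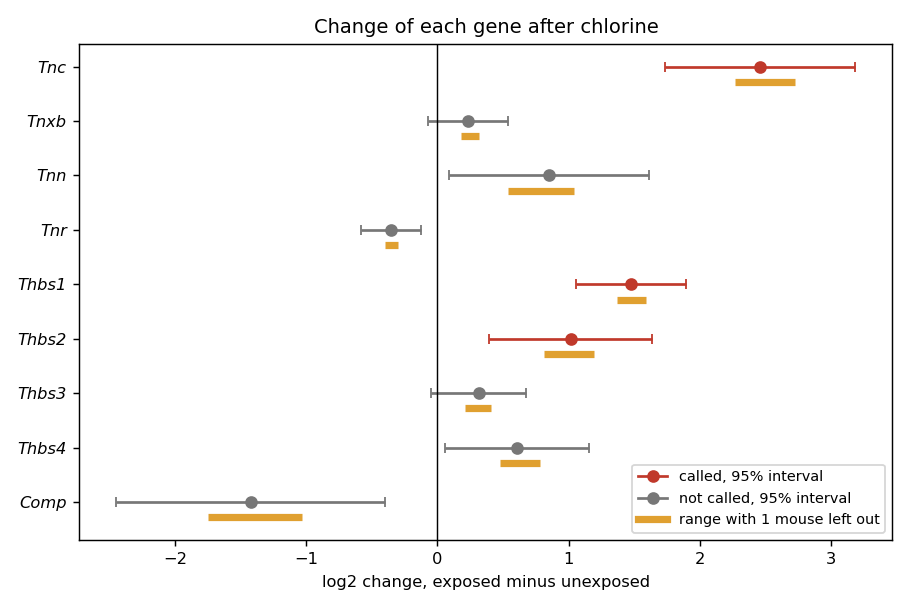
Log2 change (exposed minus unexposed, x axis) of each gene (y axis), with its 95% limma interval in red where the gene was called and in grey where it was not; the orange bar is the range of the change with each of the 10 mice left out in turn. Tnc (2.46), Thbs1 (1.48) and Thbs2 (1.02) are the called genes, and the interval of Comp (-2.45 to -0.40) is the widest.

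Tnc encodes tenascin C, the family member best known from healing wounds and fibrotic tissue. In exposed mice 1 to 5 its log2 values were 9.54, 9.71, 10.46, 10.16 and 8.67. In unexposed mice 1 to 5 they were 6.68, 7.07, 7.89, 6.88 and 7.73. Every exposed mouse was above every unexposed mouse, and the lowest exposed value lay 0.79 above the highest unexposed one. Among all genes the groups did not overlap, with the exposed mice higher, for 5.89%. The mean was 9.71 ± 0.68 in exposed and 7.25 ± 0.53 in unexposed mice (SD, n = 5 each), a log2 change of 2.46 (SE 0.33, limma adjusted p = 0.000783) with a 95% interval of 3.33-fold to 9.09-fold. With 1 mouse left out the change was 2.27 to 2.72 and the call held in all 10 fits (limma adjusted p 0.000364 to 0.0032).

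The stretches just upstream of the start sites of 3 members are shown to set side by side genes that were called (Tnc and Thbs2) and the connective tissue tenascin that was not (Tnxb). They are the 250 bases before a start in RefSeq's GRCm38.p6 table, which is of C57BL/6J and not FVB/NJ, printed 5′ to 3′ on the gene's strand. Tnc has 2 starts there, and the one nearer the gene body is used (chr4:64046937-64047186, minus strand). Thbs2 is at chr17:14694263-14694512 (minus strand) and Tnxb at chr17:34670285-34670534 (plus strand). Capitals mark matches, on either strand, to the letters TATANA (TATA box), CAGACA (SMAD-binding element), TGANTCA (AP-1), GGAATG (TEAD), GCGGGGGCG (EGR1) or to the CArG box (serum response factor). The motifs were chosen after the expression values were seen, and no marked matches overlap.
Tnc: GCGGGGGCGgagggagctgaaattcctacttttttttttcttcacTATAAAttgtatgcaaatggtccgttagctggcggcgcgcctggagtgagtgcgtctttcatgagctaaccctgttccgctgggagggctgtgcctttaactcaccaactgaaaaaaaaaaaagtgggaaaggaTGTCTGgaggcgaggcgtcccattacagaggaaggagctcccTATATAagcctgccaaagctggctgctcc
Thbs2: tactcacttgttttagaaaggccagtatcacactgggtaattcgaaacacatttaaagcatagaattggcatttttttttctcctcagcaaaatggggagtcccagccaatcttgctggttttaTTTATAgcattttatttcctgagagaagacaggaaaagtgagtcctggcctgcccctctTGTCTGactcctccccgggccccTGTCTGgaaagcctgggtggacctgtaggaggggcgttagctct
Tnxb: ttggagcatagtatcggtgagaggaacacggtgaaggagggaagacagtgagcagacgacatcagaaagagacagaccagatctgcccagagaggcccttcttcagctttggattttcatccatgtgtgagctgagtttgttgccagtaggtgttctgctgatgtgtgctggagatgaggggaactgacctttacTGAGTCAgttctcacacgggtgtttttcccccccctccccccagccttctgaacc
The Tnc stretch holds TATANA at bases 29 to 24 before the start and again at 205 to 200, CAGACA on the other strand at 71 to 66, and GCGGGGGCG at 250 to 242. The Thbs2 stretch holds CAGACA on the other strand at 67 to 62 and at 44 to 39, and TATANA on the other strand at 126 to 121. Tnxb holds TGANTCA at 55 to 49. Of 32851 such windows of all genes, 22.6% hold TATANA, 17.1% CAGACA, 6.75% TGANTCA, 12.6% GGAATG, 2.57% GCGGGGGCG and 1.47% a CArG box. A window was listed for 7 of the 9 members, not for Thbs1 or Comp. Of these 7, 3 hold CAGACA (Tnc, Thbs2 and Thbs4) and 3 hold TATANA (Tnc, Thbs2 and Tnn). Thbs4 and Tnn were not called, so neither motif was confined to called genes. The window of the other Tnc start (chr4:64047016-64047265) holds TATANA and GCGGGGGCG but not CAGACA. These matches describe letters and not bound sites.

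Among the other tenascins, none passed. Tnxb encodes tenascin X, which binds fibrillar collagen in loose connective tissue and whose loss gives a form of Ehlers-Danlos syndrome in people. Its values were 8.38, 8.86, 8.90, 8.87 and 8.67 in exposed mice 1 to 5, and 8.33, 8.28, 8.86, 8.56 and 8.50 in unexposed mice 1 to 5. The groups overlapped, and the log2 change was 0.23 (SE 0.14, limma adjusted p = 0.345), with a 95% interval of -0.07 to 0.54. Tnn encodes tenascin W, known from periosteum and tumour stroma. It stood at 6.17, 6.12, 7.67, 6.51 and 5.67 in exposed mice 1 to 5, and at 5.48, 6.29, 5.32, 4.94 and 5.85 in unexposed mice 1 to 5. All 5 exposed mice were above the unexposed mean, but 3 lay below the highest unexposed mouse. The change of Tnn was 0.85 (SE 0.35, limma adjusted p = 0.155, 95% interval 0.09 to 1.61), and 0.54 without exposed mouse 3, its highest mouse. Tnr encodes tenascin R, a protein of the nervous system made by oligodendrocytes. Its log2 values of 2.52 to 2.84 in exposed mice and 2.81 to 3.21 in unexposed ones were below the array median on all 10 arrays. They differed by -0.35 (SE 0.10, limma adjusted p = 0.0514), with 4 of 5 exposed mice below every unexposed mouse. Tnr passed without exposed mouse 1 (limma adjusted p = 0.0352) or unexposed mouse 1 (limma adjusted p = 0.0461), and its adjusted p over all alternatives was 0.0352 to 0.119. Of 7 Schwann cell and nerve markers measured, none passed in either direction, and their mean was 6.13 to 6.54 in exposed mice and 6.42 to 6.70 in unexposed ones; their part in the Tnr values was not tested.

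**Figure D2:**
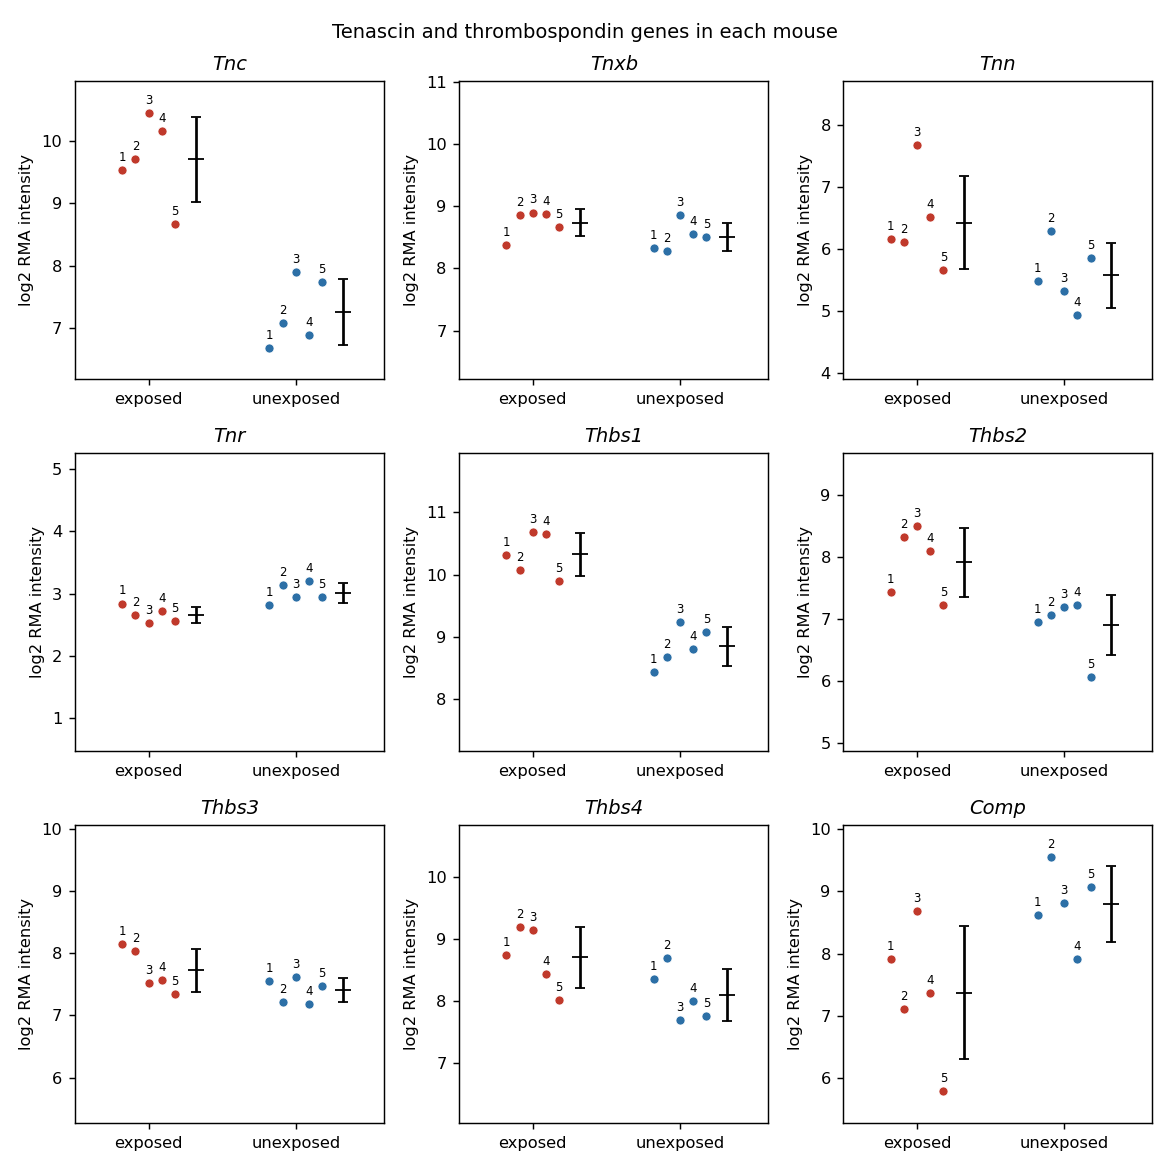
Log2 RMA intensity (y axis) of the 9 genes in each of the 5 exposed (red) and 5 unexposed (blue) mice, numbered as in the labels; black bars are the mean and SD. All panels span the same number of log2 units. The groups are apart for Tnc and Thbs1, touch for Thbs2 (7.22 against 7.23) and overlap or lie close for the others.

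Thbs1 encodes thrombospondin 1, which is stored in platelets, blocks angiogenesis through CD36 and releases TGF-beta from its latent form. In exposed mice 1 to 5 Thbs1 stood at 10.31, 10.07, 10.69, 10.66 and 9.90. In unexposed mice 1 to 5 it stood at 8.43, 8.68, 9.23, 8.81 and 9.08. The groups did not overlap and lay 0.66 apart. The log2 change was 1.48 (SE 0.19, limma adjusted p = 0.000619) with a 95% interval of 2.08-fold to 3.72-fold, and with 1 mouse left out it was 1.37 to 1.59 with the call kept in all 10 fits.

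Thbs2 encodes thrombospondin 2, the second trimeric member, a product of fibroblasts that affects collagen fibril assembly in mouse skin. Its exposed values were 7.44, 8.32, 8.49, 8.10 and 7.22 for mice 1 to 5. The unexposed values were 6.95, 7.07, 7.19, 7.23 and 6.06. Exposed mouse 5 was level with the highest unexposed mouse, and the other 4 exposed mice were above all unexposed ones. The log2 change of 1.02 (SE 0.28, limma adjusted p = 0.0411) had a 95% interval of 1.32-fold to 3.11-fold. With 1 mouse left out the change stayed between 0.81 and 1.19, but the call was lost in 8 of the 10 fits and held when exposed mouse 1 or exposed mouse 5 was omitted (limma adjusted p 0.0228 to 0.0931, highest without exposed mouse 2). Unexposed mouse 5 lay well below its group, and without it the change was 0.81.

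Markers of cell types that carry thrombospondins moved in the same arrays. Of 8 platelet and megakaryocyte markers measured, 2 rose, led by the platelet chemokine Ppbp (log2 change 5.05, limma adjusted p = 0.000273), and their mean was 5.54 to 6.14 in exposed mice and 4.72 to 5.09 in unexposed ones. The other was the platelet factor gene Pf4 (1.38, limma adjusted p = 0.00607), while the platelet membrane receptor gene Clec1b averaged 2.56 in exposed and 2.63 in unexposed mice, below the array median. The median log2 change of the 8 was 0.01, and the 6 other than Ppbp and Pf4 had changes of -0.22 to 0.36 and did not pass. Of 9 macrophage markers, 7 rose, led by the membrane protein Ms4a7 (2.10, limma adjusted p = 0.000193), and their mean was 7.71 to 8.47 in exposed mice and 6.76 to 7.30 in unexposed ones. Of 12 fibroblast markers, 4 rose, led by the collagen gene Col3a1 (1.04, limma adjusted p = 0.00295), and their mean changed by 0.37. The within-array difference between Tnc and the fibroblast mean was -1.01 to 0.40 in exposed mice and -2.73 to -1.57 in unexposed ones. That between Thbs1 and the fibroblast mean was 0.20 to 0.89 in exposed mice and -0.98 to -0.22 in unexposed ones. On this difference the groups did not overlap for either gene. They were apart for both genes before the subtraction. The changes of 2.46 for Tnc and 1.48 for Thbs1 were large beside the 0.37 subtracted, so this adds little to their rises. For Thbs2 the difference was -2.46 to -1.54 in exposed mice and -3.24 to -2.17 in unexposed ones, which overlap. The part of fibroblasts, platelets and macrophages in these rises was not tested.

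None of the pentameric thrombospondins passed, and their changes lay on both sides of 0. Thbs3, known for skeletal expression, stood at 8.15, 8.04, 7.52, 7.57 and 7.35 in exposed mice 1 to 5, against 7.56, 7.22, 7.62, 7.19 and 7.47 in unexposed mice 1 to 5. The 2 highest were exposed mice 1 and 2, and the rest were mixed (log2 change 0.31, SE 0.17, limma adjusted p = 0.284, 95% interval -0.05 to 0.68). Thbs4, a protein of tendon and muscle matrix, stood at 8.74, 9.19, 9.14, 8.44 and 8.02 in exposed mice 1 to 5. The unexposed values were 8.35, 8.69, 7.70, 8.01 and 7.76. Here 3 exposed mice were above every unexposed mouse, and the change was 0.61 (SE 0.25, limma adjusted p = 0.160, 95% interval 0.06 to 1.15).

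Comp encodes cartilage oligomeric matrix protein, a collagen-binding protein of cartilage, tendon and ligament. It was 7.91, 7.11, 8.69, 7.36 and 5.79 in exposed mice 1 to 5, and 8.62, 9.56, 8.82, 7.91 and 9.07 in unexposed mice 1 to 5. All 5 exposed mice were below the unexposed mean of 8.80 ± 0.61 (SD, n = 5), with 3 of them below every unexposed mouse. The exposed mice spread more widely, with a mean of 7.37 ± 1.07 (SD, n = 5). The log2 change was -1.42 (SE 0.47, limma adjusted p = 0.0775, 95% interval -2.45 to -0.40) and did not pass. It passed without exposed mouse 3 (-1.75, limma adjusted p = 0.0225) and with array weights (-1.58, limma adjusted p = 0.0296). It also passed without exposed mice 1 and 3 (-2.04, limma adjusted p = 0.0104), a setting chosen after the data were seen. These mice had the highest exposed values of Comp, so leaving out either or both had to enlarge the fall. Over all alternatives the limma adjusted p was 0.0104 to 0.167.

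The values of Comp ran beside those of cartilage markers. Of 17 such markers, 4 fell and 0 rose, led by the chondrocyte membrane protein Cnmd (-2.41, limma adjusted p = 0.00415), and the median log2 change was -0.81. In the fits with 1 mouse left out, 2 to 11 of the 17 fell. Without exposed mice 1 and 3, 12 fell, but that setting was chosen after the data were seen. It leaves out the exposed mice with the highest cartilage means. The mean of the 17 in exposed mice 1 to 5 was 7.97, 7.42, 8.72, 7.59 and 6.69, against 8.38, 9.03, 8.34, 8.12 and 8.86 in unexposed mice 1 to 5. From high to low the exposed mice had the order 3, 1, 4, 2, 5 both for Comp and for the cartilage mean. Comp changed by -1.42 and the cartilage mean by -0.87. The within-array difference between them was -0.90 to -0.03 in exposed mice and -0.21 to 0.53 in unexposed ones, which overlap. Among 10 tendon, ligament and perichondrium markers, Cilp, Prg4 and Egr2 rose and Fmod (-1.81, limma adjusted p = 0.0206) and Kera fell. Their mean was 6.35 to 7.05 in exposed mice and 6.68 to 7.07 in unexposed ones. The call of Fmod was lost in 3 of the 10 fits, those without exposed mouse 4, unexposed mouse 2 or unexposed mouse 5 (limma adjusted p 0.0012 to 0.0545). The part of cartilage content in the Comp values was not tested.

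**Figure D3:**
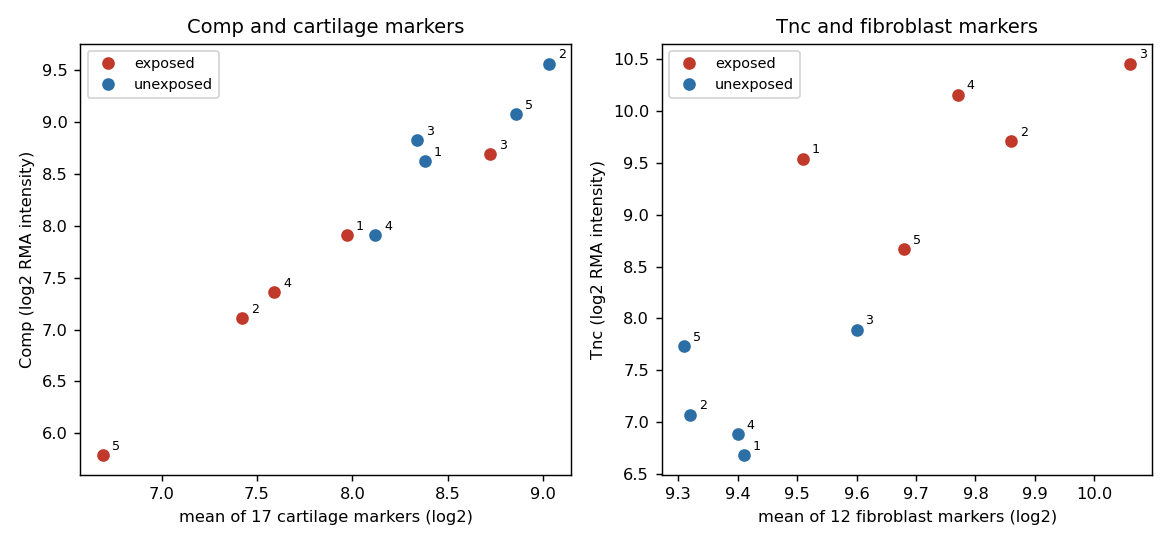
Each point is 1 mouse, exposed in red and unexposed in blue, numbered as in the labels. Left, Comp (y axis, log2) against the mean of 17 cartilage markers (x axis, log2): exposed mice 2, 4 and 5 lie low on both axes. Right, Tnc (y axis, log2) against the mean of 12 fibroblast markers (x axis, log2): exposed mouse 3 is highest on both (10.46 and 10.06), and exposed mouse 1 is close to unexposed mouse 3 on the x axis (9.51 and 9.60) and higher in Tnc (9.54 and 7.89).

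Whether related genes changed unequally was asked with the within-array log2 difference between the genes of 5 pairs. Group labels were permuted in every possible way (exact permutation test, two-sided), with p-values adjusted over the 5 pairs. That adjustment does not cover the choice of these 5 pairs among the members. The smallest p this can give is 0.00794, and levels of different genes are not compared. Tnc minus Tnxb was 0.01 to 1.55 in exposed mice and -1.68 to -0.77 in unexposed ones, with means that differed by 2.23 (exact permutation p = 0.00794, adjusted p = 0.0198). Every exposed mouse was above every unexposed one. The groups were already apart for Tnc alone (change 2.46) and Tnxb changed by 0.23, so this pair adds little to the call of Tnc. Comp minus Thbs4 was -2.24 to -0.45 in exposed mice and -0.10 to 1.31 in unexposed ones, again without overlap (difference -2.03, exact permutation p = 0.00794, adjusted p = 0.0198). These pairs kept their call in all 10 fits with 1 mouse left out (adjusted p 0.0198 to 0.0397). Thbs1 minus Thbs4 differed by 0.87, with 0.88 to 2.22 in exposed mice and -0.01 to 1.53 in unexposed ones (exact permutation p = 0.0476, adjusted p = 0.0794), and passed without unexposed mouse 5 (adjusted p = 0.0496). Thbs1 minus Thbs2 differed by 0.46 with overlapping groups (exact permutation p = 0.222, adjusted p = 0.278), and passed without unexposed mouse 5 (0.73, adjusted p = 0.0496). Thbs3 minus Thbs4 differed by -0.29 (exact permutation p = 0.365).

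**Figure D4:**
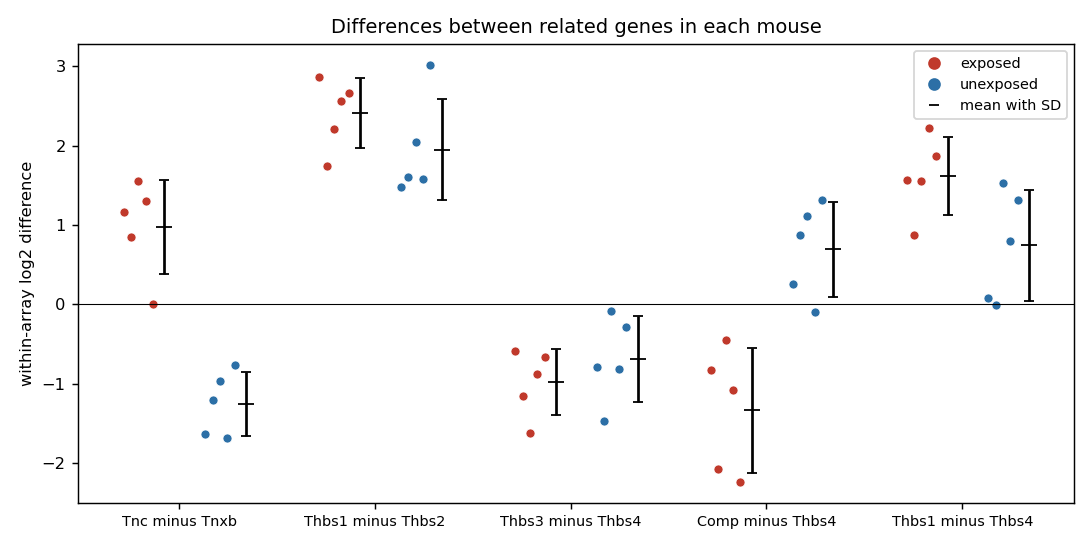
Within-array log2 difference (y axis) between the genes of 5 pairs (x axis) in exposed (red, left of each pair) and unexposed (blue, right) mice; each point is 1 mouse and black bars are the mean and SD. Tnc minus Tnxb lies higher and Comp minus Thbs4 lower in every exposed mouse than in any unexposed one, and the other pairs overlap.

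Receptors for these proteins went both ways. Of 23 listed receptor genes measured, 5 rose, 2 fell and 16 did not pass, with a median log2 change of 0.06. The share called in either direction was 30.4%, against 10.8% of all genes. Itga5, which pairs with the integrin beta chain Itgb1 to bind fibronectin, rose most among them (8.42 ± 0.40 in exposed and 7.33 ± 0.46 in unexposed mice, SD, n = 5 each; log2 change 1.09, limma adjusted p = 0.0135). Itga6, a laminin-binding integrin chain of basal epithelium, rose by 0.96 (limma adjusted p = 0.00477), and of 8 basal epithelium markers measured 4 rose (Krt6a, Krt14, Krt17 and Dsg3). The other 4 did not pass and had log2 changes below 0 (Krt15 -0.52, Trp63 -0.40, Dapl1 -0.69 and Ngfr -0.12). The endocytic receptor Lrp1, which clears thrombospondins, rose by 0.72 (limma adjusted p = 0.0172). Cd36, the receptor of the thrombospondin type 1 repeats, was lower in exposed mice, at 10.01 ± 0.55 against 10.95 ± 0.17 in unexposed mice (SD, n = 5 each; log2 change -0.94, limma adjusted p = 0.0214). Itga8, a chain of a tenascin C and fibronectin receptor on smooth muscle, fell by 0.71 (limma adjusted p = 0.0262). Cd36 lost its call without unexposed mouse 4 (limma adjusted p = 0.0565), and Itga8 in 4 of the 10 fits (exposed mice 2 and 4 and unexposed mice 3 and 5; highest limma adjusted p = 0.0664).

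Other matricellular genes were called at about the share of all genes, 11.8% against 10.8%. Of 17 other matricellular genes measured, Ccn4 (0.62, limma adjusted p = 0.042) and Igfbp7 (0.39, limma adjusted p = 0.0483) rose, none fell, and the median log2 change was 0.03. Each of this pair lost its call in 8 of the 10 fits with a mouse left out, and in any such fit at most 1 gene of the list rose. Periostin (Postn), a matrix protein of fibrotic airways chosen here after its value was seen, was 10.46 ± 0.44 in exposed and 9.78 ± 0.48 in unexposed mice (SD, n = 5 each; limma adjusted p = 0.121). Of 25 growth factors, cytokines and transcription factors known to drive tenascin or thrombospondin genes, Fgf2, a fibroblast growth factor, rose (0.58, limma adjusted p = 0.0466), none fell, and the median was -0.03. The share called in this list was 4.0%, below the 10.8% of all genes. Fgf2 lost its call in 7 of the 10 fits (highest limma adjusted p = 0.106).

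Matrix partners were called in both directions. Of 20 measured, 4 rose and 2 fell, and the median log2 change was 0.23. Vcan encodes versican, a lectican of the class that tenascins bind. It rose 2.52-fold (9.50 ± 0.37 in exposed and 8.17 ± 0.17 in unexposed mice, SD, n = 5 each; limma adjusted p = 0.000559). The fibrillar collagen genes Col3a1 (1.04) and Col1a1 (0.87), also among the fibroblast markers, rose, the call of Col1a1 being lost without exposed mouse 4 (limma adjusted p = 0.0501). The cartilage matrilins Matn1 (-1.56, limma adjusted p = 0.0187) and Matn3 (-1.19, limma adjusted p = 0.0276), which bind COMP and are also among the cartilage markers, fell. Matn3 lost its call in 6 of the 10 fits (highest limma adjusted p = 0.0652, without exposed mouse 2). With 1 mouse left out 2 to 5 partners rose and 1 to 3 fell, and without exposed mice 1 and 3 each direction had 4.

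Proteases known to cut tenascins or thrombospondins were called higher for 5 of 16 genes and lower for 1, with a median log2 change of 0.25. That is 37.5% called, against 10.8% of all genes. Stromelysin 1 (Mmp3), which cuts tenascin C, rose 3.31-fold (6.99 ± 0.83 in exposed and 5.27 ± 0.33 in unexposed mice, SD, n = 5 each; limma adjusted p = 0.00758). The membrane-bound collagenase Mmp14 rose 2.86-fold (9.79 ± 0.22 in exposed and 8.28 ± 0.18 in unexposed mice, SD, n = 5 each; limma adjusted p = 5.45e-05). Adamts4, an aggrecanase that also cuts COMP, rose by 0.86 (limma adjusted p = 0.0116), and the epithelial serine protease Hpn fell by 0.58 (limma adjusted p = 0.0063).

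Genes that share a domain with the members were called in both directions. Of 54 measured genes with thrombospondin type 1 repeats, 9 rose, 2 fell and 43 did not pass, with a median log2 change of -0.02. The share called was 20.4%, against 10.8% of all genes. Spon2, a secreted spondin that binds microbes and integrins, rose 3.32-fold (limma adjusted p = 0.00139), the cartilage intermediate layer protein gene Cilp 2.81-fold (limma adjusted p = 0.000421) and the complement component gene C7 2.63-fold (limma adjusted p = 0.00282). Papln (-0.80) and Sspo (-0.49) fell. The call of Papln was lost in 4 of the 10 fits (exposed mouse 2 and unexposed mice 3, 4 and 5, highest limma adjusted p = 0.0809). Both genes were dim, near or below the array medians of 5.10 to 5.18. Papln averaged 4.36 in exposed and 5.16 in unexposed mice, and Sspo 4.73 and 5.22. Of 15 measured genes with the fibrinogen-like domain that tenascins carry, 2 rose and 1 fell (20.0% called), with a median of 0.04. They were the lipase inhibitor Angptl4 (2.13, limma adjusted p = 0.00401), the ficolin Fcna (0.90, limma adjusted p = 0.0016) and Angptl7 (-0.75, limma adjusted p = 0.00665).

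The genes whose values over the 10 mice were closest to each called member were found by the root-mean-square (RMS) difference of log2 values, each gene being taken relative to its own unexposed mean, among 18768 named genes. Closest to Tnc were the EGF receptor ligand Ereg (RMS difference 0.37), the metalloproteinase Mmp19 (0.40) and the monocyte chemokine Ccl2 (0.46), with log2 changes of 2.33, 2.28 and 2.26. Closest to Thbs1 were Inhba, the activin A subunit (0.20), the basement membrane collagen gene Col4a1 (0.23) and the macrophage sialoadhesin Siglec1 (0.23), which changed by 1.34, 1.50 and 1.45. Closest to Thbs2 were the leukocyte tetraspanin Cd53 (0.21), the myeloid lectin Clec4a3 (0.22) and the sialic acid lyase Npl (0.22), which changed by 0.95, 0.97 and 1.11. The calls of Cd53 and Clec4a3 were lost in 7 and 8 of the 10 fits with a mouse left out. Since the measure holds the change itself, these genes had to change by a like amount.

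Neighbouring genes in the RefSeq gene order were read to see whether a change extended past a member. A neighbour here is the nearest measured gene on a side, so unmeasured genes may lie between it and the member. On chromosome 4, both measured neighbours of Tnc were also higher in exposed mice. They were Tnfsf8, the CD30 ligand, at 5.98 ± 0.59 in exposed and 3.81 ± 0.18 in unexposed mice (SD, n = 5 each, log2 change 2.18, limma adjusted p = 0.000237), and the protease Pappa (0.88, limma adjusted p = 0.0163). The unexposed mean of Tnfsf8 was below the array medians of 5.10 to 5.18. On chromosome 17 the nearest measured gene on one side of Tnxb was the complement gene C4b. It rose by 1.32 (limma adjusted p = 0.000158) where Tnxb did not pass. C4b has a near-identical copy, C4a, so its value is uncertain. Neither neighbour of Thbs1 passed: Fsip1 had a log2 change of -1.04 (limma adjusted p = 0.0752). Beside Thbs2, Smoc2 changed by -0.16 (limma adjusted p = 0.688) and Wdr27 fell by 0.99 (limma adjusted p = 0.017). No measured neighbour of Thbs3, Thbs4, Comp, Tnn or Tnr passed, among them Mtx1 beside Thbs3 (0.18, limma adjusted p = 0.282). Among all genes 10.8% were called in either direction, and a cause shared by neighbouring genes was not tested.

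The exposed mice differed among themselves in a shared way. Exposed mouse 3 had the highest exposed value for 6 of the 9 members (Tnc, Tnxb, Tnn, Thbs1, Thbs2 and Comp), and exposed mouse 5 the lowest for 7 (Tnc, Tnn, Thbs1, Thbs2, Thbs3, Thbs4 and Comp). Exposed mouse 3 also had the highest exposed mean for 8 of the 12 marker lists, fibroblast and cartilage among them, and the lowest pan-epithelial mean (8.27, with 8.93 to 9.26 in the other exposed mice). In the fit with array weights its array had the lowest weight, 0.491, against 0.817 to 1.46 for the others. Arrays correlated at 0.947 to 0.983 within the exposed group and at 0.982 to 0.986 within the unexposed one. The part of array quality or of the capture in these differences was not tested. Exposed mouse 1 had the highest pan-epithelial (9.26) and the lowest fibroblast mean (9.51), and was next to mouse 3 in Comp and in the cartilage mean. Without these 2 mice Tnc (2.27, limma adjusted p = 0.00348) and Thbs1 (1.36, limma adjusted p = 0.00333) kept their calls. In that fit Thbs2 did not pass (0.98, limma adjusted p = 0.0702). Smooth muscle markers had means of 9.51 to 10.20 in exposed mice and 9.33 to 10.25 in unexposed ones with 0 of 9 called. Ciliated epithelium markers fell for 4 of 9 (means of 4.60 to 7.78 in exposed mice and 7.91 to 8.44 in unexposed ones), with 3 to 8 lower when a mouse was left out and 8 without exposed mice 1 and 3. Of 8 endothelium markers 1 rose, the receptor gene Tek (0.46, limma adjusted p = 0.0492), which lost its call in 8 of the 10 fits, and 0 to 3 rose with a mouse left out. Of 8 skeletal muscle markers 1 fell, the troponin gene Tnnt3 (-1.07, limma adjusted p = 0.0259), whose call was lost in 2 of the 10 fits (exposed mouse 2 and unexposed mouse 3), and 0 to 1 fell with a mouse left out.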

How the data were processed

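RNA of tracheal mesenchyme from 10 mice was hybridised to 1 array each. The deposited log2 intensities were made by the authors using Partek 6.6 and RMA, according to the submitters' processing notes. That they are log2 was read from their range of 0.419 to 14.007. RMA settings and the annotation build were not given in the sources, and scanner files were not used. Of 41345 probe sets, 23521 had 1 gene symbol in the platform annotation, 1814 had several and 16010 were not listed. Single-symbol probe sets were averaged per gene (22180 genes). Groups followed the sample titles. They were compared two-sided, without covariates, by limma 3.58.1 (R 4.3.3), which was first tested on simulated data. Alternatives were other scaling, filters on dim genes, other probe set rules, array weights, a trended robust fit, a mouse-number block and single mice left out. Tables were made in Python 3.11.15. Pair differences used an exact permutation test. Members and gene lists were chosen with earlier results of these data known. Besides the members, up to 3 called rises and falls with the largest change were named per pathway or family list, 1 called gene per marker list, the 3 closest genes per called member and the nearest measured neighbours. Further genes named were chosen after their values were seen (Pf4, Clec1b, Postn, Kera, Prg4, Egr2 and the basal markers other than Krt6a). Mouse numbers were not treated as pairs, since no shared litter, day or batch was given for them. Same-numbered deviations correlated at -0.0488 to 0.125, which cannot show whether the mice were paired.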

Additional observations from a re-analysis of the deposited data

Results flagged for a closer look

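Thbs2 in unexposed mouse 5 was flagged because it stood far from its group: at 6.06, its gap to the nearest unexposed mouse was 0.763 of the group's range, above Dixon's 95% critical value of 0.71 for 5 samples. Of the 28 sets of 5 values examined (9 genes and 5 pairs in both groups) this was the 1 flagged, and chance flags about 1 in 20 such sets.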

How the results depend on the processing

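Tnc and Thbs1 kept direction and call in all 20 alternatives run for each, and Tnxb, Tnn, Thbs3 and Thbs4 passed in none. Over single mice left out, members called higher numbered 2 to 3 and lower 0 to 1, against 3 and 0, and genes called higher numbered 944 to 1432 and lower 723 to 1407. One member was called lower with quantile normalization (Tnr, adjusted p = 0.0454), with array weights (1, Comp) and without exposed mice 1 and 3 (1, Comp), the last setting chosen after the data were seen. Thbs2 also missed the threshold with each probe set tested by itself (adjusted p = 0.0767), where more features are adjusted for. At an adjusted p under 0.01, 619 genes were called higher and 435 lower, and Tnc and Thbs1 remained of the members. Pair differences over single mice left out were 2.08 to 2.47 for Tnc minus Tnxb, -2.25 to -1.80 for Comp minus Thbs4, 0.68 to 1.07 for Thbs1 minus Thbs4, 0.35 to 0.73 for Thbs1 minus Thbs2 and -0.49 to -0.13 for Thbs3 minus Thbs4. Mouse number as a replicate block gave 1026 genes higher and 854 lower, with Tnc, Thbs1 and Thbs2 called (adjusted p = 0.00372, 0.00276 and 0.00611). In pairing by mouse number, Tnc minus Tnxb (2.23) and Comp minus Thbs4 (-2.03) had an exact sign-flip p of 0.0625, the smallest that 5 pairs allow (adjusted p = 0.104). Tnr was left out by both filters on dim genes (mean log2 value at least 5 or 6). Low signals such as Tnr have no detection limit here.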
